A study of Mus musculus with 24 samples.

Results

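The genes described here act in ribosome biogenesis, the making of ribosomes from ribosomal RNA and protein in the nucleolus. They were chosen by name: symbols starting with Nop, Nol, Utp or Rrp and a digit, or with Polr1, and 16 further genes (Fbl, Gar1, Nhp2, Ncl, Npm1, Gnl2, Gnl3, Wdr12, Bop1, Pes1, Nip7, Ubtf, Rrn3, Imp3, Imp4 and Tsr1). The rule found 56 of the 19938 genes named on the array, and 54 of the 56 passed the filter on dim genes and were tested. By known role, 7 of the 56 belong to RNA polymerase I transcription, 6 are core proteins of the small nucleolar RNA particles (snoRNPs), 21 serve the small ribosomal subunit, 16 serve the large subunit and 2 (Npm1 and Ncl) are abundant nucleolar proteins with many partners. The rule also took in 4 genes by spelling alone, Nol3, Nol4, Nol4l and Nol7, for which no role in making ribosomes is assumed here.

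RNA polymerase I copies the ribosomal DNA into a long precursor RNA. Small nucleolar RNAs, carried by snoRNP proteins, guide the methylation and pseudouridylation of that precursor while it is cut and folded, and separate sets of factors then build the small and large subunits and release them to the cytoplasm. In the mouse embryo the nucleolus becomes active after fertilisation, and ribosomes are made through the blastocyst stage.

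Expression was measured in pools of blastocysts from NMRI mice, an outbred stock, on 24 Affymetrix arrays in 6 groups of 4. The parents were put on a high-calorie diet rich in fat (HFD) or on a control diet (CD) at the age of 3 weeks and kept on it for 9 weeks. They were mated at 12 weeks, and all ate the control diet during mating. Embryos of obese fathers had an HFD father and a CD mother, those of obese mothers had an HFD mother and a CD father, and those of lean parents had 2 CD parents. Male (XY) and female (XX) embryos, collected 3.5 days after mating, were kept apart, and each array was run on the pooled lysate of 3 same-sex embryos of a single mother. The protocols name a cohort of 7 HFD and of 14 CD animals without saying which parents gave which pool, so pools may share a parent and the p-values below measure the spread between these pools. In such a sample, fewer cells of a type and less RNA per cell cannot be told apart. Levels are log2 intensities, and they are compared between samples for 1 gene at a time, not between genes.

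The tissue label was checked against markers. Of 7 trophectoderm markers, 6 (Cdx2, Eomes, Gata3, Tfap2c, Krt8 and Krt18) exceeded the median of the whole table, 2.56, on all 24 arrays, as did Pou5f1, Nanog, Klf4 and Fgf4 of 5 inner cell mass markers. Group means of the cumulus and granulosa cell list lay between 2.51 and 2.78, with Amh and Foxl2 above the median on all arrays. Of 4 primitive endoderm markers 2 exceeded it on all arrays. So did 3 of 4 sperm genes (Prm1, Prm2 and Tnp1; group means of the list 3.17 to 3.29), so a level above the table median says little by itself about a cell type. The part of such cells in the results was not tested. Arrays differed in signal spread, the standard deviation of all log2 values on an array, which ran from 1.27 to 1.81. Array 22 (female, obese father) had the widest spread, followed by array 12 (male, obese father) at 1.72, and the narrowest was array 4 (male, lean parents). Males of obese fathers had a mean spread of 1.56 ± 0.11 (SD, n = 4) and males of lean parents one of 1.38 ± 0.12, a difference with an exact two-sided permutation p of 0.114 (adjusted p = 0.707 over 9 comparisons). In females of obese fathers it was 1.47 ± 0.23, against 1.46 ± 0.08 in females of lean parents.

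Promoter sequence is given here for 4 members on which the comparison of obese fathers turns. Gar1, Nop58 and Ncl had the higher, and Polr1e the lower, mean in male embryos of obese fathers. Each run holds the 250 bases before the annotated start, 5′ to 3′ on the gene's own strand, from RefSeq (GRCm38.p6). Capitals mark, on either strand, GGGCGG (a GC box), CCGGAAG (an ETS-type motif) and TTTCCGG.
Gar1: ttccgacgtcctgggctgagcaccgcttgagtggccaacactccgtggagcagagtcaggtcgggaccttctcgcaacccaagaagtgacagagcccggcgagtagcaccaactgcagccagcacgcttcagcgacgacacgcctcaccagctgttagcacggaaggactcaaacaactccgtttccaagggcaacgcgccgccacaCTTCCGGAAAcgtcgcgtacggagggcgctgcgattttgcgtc
Nop58: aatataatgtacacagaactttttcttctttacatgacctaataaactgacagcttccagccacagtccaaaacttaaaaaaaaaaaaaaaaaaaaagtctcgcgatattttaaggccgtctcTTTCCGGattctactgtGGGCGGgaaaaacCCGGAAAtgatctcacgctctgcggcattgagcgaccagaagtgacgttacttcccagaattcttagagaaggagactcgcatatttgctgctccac
Ncl: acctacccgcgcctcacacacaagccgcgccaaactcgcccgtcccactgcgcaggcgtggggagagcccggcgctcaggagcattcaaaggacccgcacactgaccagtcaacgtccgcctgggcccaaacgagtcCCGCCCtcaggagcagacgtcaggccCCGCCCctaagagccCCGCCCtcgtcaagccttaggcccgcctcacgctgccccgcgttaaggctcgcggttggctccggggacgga
Polr1e: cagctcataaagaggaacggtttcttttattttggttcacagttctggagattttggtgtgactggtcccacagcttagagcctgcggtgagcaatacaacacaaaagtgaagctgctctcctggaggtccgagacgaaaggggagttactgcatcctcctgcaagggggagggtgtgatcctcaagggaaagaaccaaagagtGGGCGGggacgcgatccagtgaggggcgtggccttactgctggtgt
The 4 windows lie at chr3:129831397-129831646 on the minus strand for Gar1, chr1:59684756-59685005 on the plus strand for Nop58, chr1:86359456-86359705 on the minus strand for Ncl and chr4:45018359-45018608 on the plus strand for Polr1e. The capitals in Gar1 are CCGGAAG and TTTCCGG sharing bases, both read on the opposite strand. A promoter was found in the RefSeq table for 43 of the 56 members, with 57 windows. The GC box was in 36 of these windows (63.2%), against 51.5% of the windows of all tested genes and 32.7% of 32851 windows in all. CCGGAAG stood in 11 member windows (19.3%, against 10.7% and 6.91%) and TTTCCGG in 10 (17.5%, against 4.31% and 2.88%). The E-box CACGTG was in 6 member windows (10.5%, against 7.61% and 6.02%), CACGCG in 7 (12.3%, against 12.2% and 7.62%) and CGCATGCG in 2 (3.51%, against 2.40% and 1.55%). These are letter matches, not binding sites, and related promoters of 1 gene can share them.

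Ribosome biogenesis factors were measured in these embryos at levels that varied widely between arrays. Of the 54 tested members, 26 exceeded the table median on all 24 arrays. Nol11, and the untested Nol3 and Nol10, lay below it in every group mean. The distance from a member's lowest to its highest array was 0.63 log2 units for Rrp12 and 5.33 for Npm1, with a median of 1.84 over members. It was over 3 for 13 members and under 1 for 11. The widest ranges were those of Npm1, Nop58 (5.08) and Ncl (4.47).

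Much of this spread followed single arrays. Array 22 held the highest value of 33 of the 54 tested members, and its median deviation from the members' own medians was 1.18 log2 units, with 43 members above their median. On array 12 the deviation was 0.42, with 41 members above their median. At the other end, array 4 held the lowest value of 10 members, with a deviation of -0.23 and 16 members above their median. These are also the arrays of widest and narrowest signal spread, so the members' levels moved with that measure, and its part in the results was not tested beyond the fits that include it below.

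**Figure D1:**
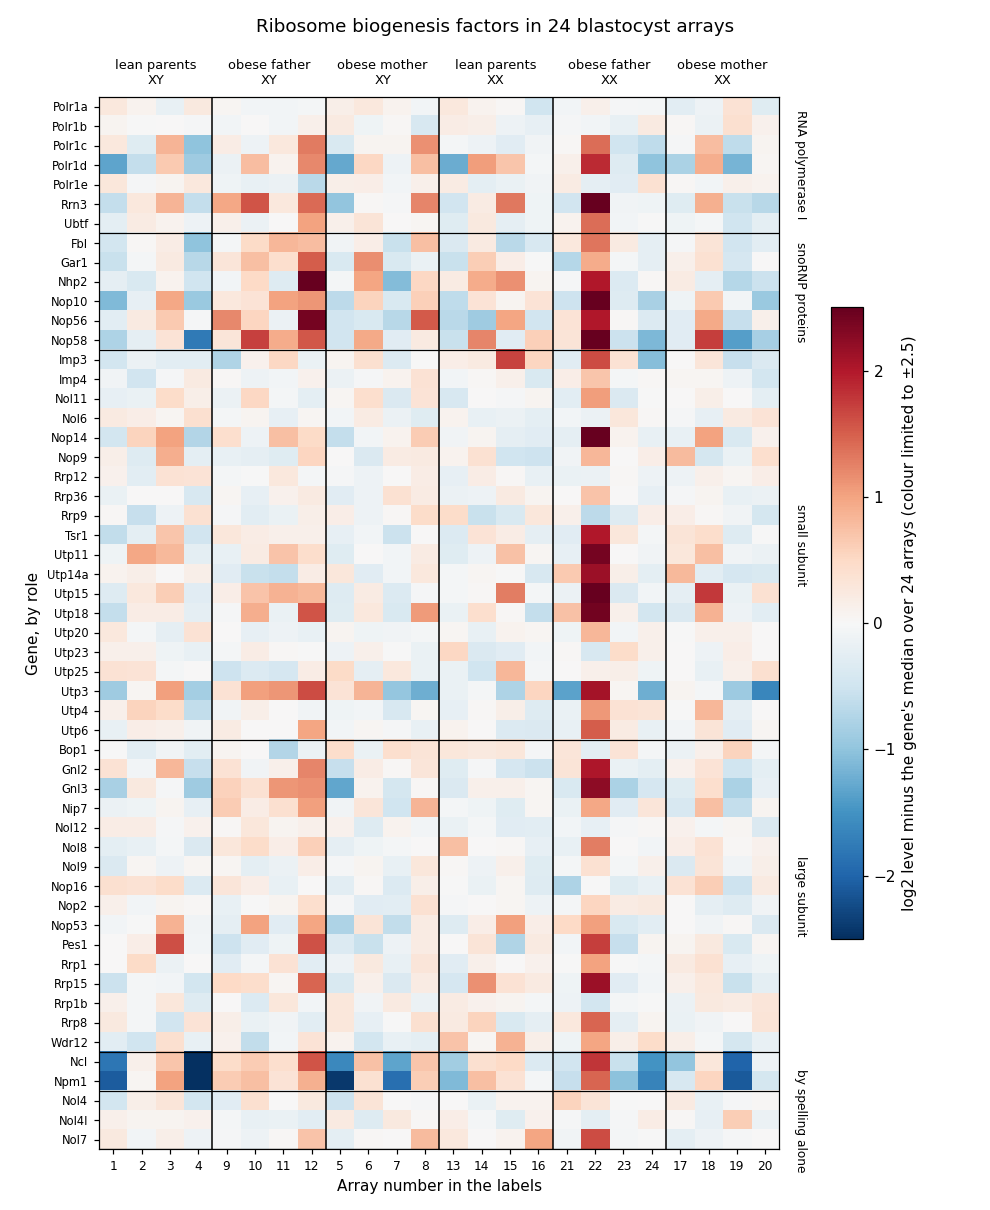
Log2 level of each of the 54 tested members (rows, grouped by role, with Ncl and Npm1 in the unlabelled block of 2) on each of the 24 arrays (columns, by group), minus that member's median over all arrays; red is above and blue below the median. Array 22 stands out in red in most rows, with the highest value of 33 members, and Ncl and Npm1 are blue on lean-parent male arrays 1 and 4.

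Of the 4 comparisons with lean parents, that of male embryos of obese fathers gave the highest log2 fold changes among these genes, though 0 of 54 members passed an adjusted p of 0.05 (limma with Benjamini-Hochberg adjustment over all 13311 tested genes), with a background of 0.00751%, or 1 gene. By role, the snoRNP proteins and the nucleolar pair had the highest medians. The 6 snoRNP proteins had log2 fold changes of 0.83 to 1.73 with a median of 1.01, and Ncl and Npm1 of 1.70 and 1.88. Over all 54 members the median was 0.14, with 34 above 0, while over all tested genes it was -0.11, with 33.3% above 0. At an unadjusted p under 0.05, 9 members were higher (16.7%, background 4.30%) and 1 was lower (1.85%, background 10.4%). For 5 members all 4 obese-father arrays lay above all 4 lean-parent arrays (background 1.91%), and for 2 they lay below (background 6.63%). The smallest adjusted p of a member was 0.316.

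Fbl, the methyltransferase of the box C/D snoRNPs, had levels of 4.78, 5.26, 5.43 and 4.23 in lean-parent males and 5.19, 5.72, 6.07 and 6.02 in obese-father males. The ranges overlapped, and the log2 fold change was 0.83 (SE 0.32, adjusted p = 0.316). A second probe set of Fbl gave 0.33. Its partner Nop58, a core scaffold of the same particles, read 3.73, 4.28, 4.83 and 2.72 in lean-parent males and 4.80, 6.20, 5.43 and 6.05 in obese-father males, a log2 fold change of 1.73 (SE 0.75, adjusted p = 0.319). Here 3 of the 4 obese-father arrays exceeded every lean-parent array. Nop56, the other scaffold, had a log2 fold change of 0.85 (95% interval -0.34 to 2.04), and its obese-father arrays ran from 3.69 to 6.24.

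In the H/ACA particles, which guide pseudouridylation, Gar1 read 3.98, 4.49, 4.76 and 3.83 in lean-parent males and 4.84, 5.29, 4.95 and 6.05 in obese-father males. The groups did not overlap, and the log2 fold change was 1.02 (SE 0.37, adjusted p = 0.316). Nhp2 and Nop10, which sit beside Gar1 in the particle, had log2 fold changes of 1.04 (95% interval -0.17 to 2.26) and 0.99 (-0.24 to 2.23). For Nhp2 the obese-father mean rested on array 12, at 6.78, with the other arrays at 3.65, 4.21 and 3.40 against 3.23 to 3.81 in lean-parent males.

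The nucleolar proteins differed as much in spread as in mean. Npm1, a histone chaperone that also acts in ribosome assembly, read 4.90, 7.02, 7.98 and 3.11 in lean-parent males and 7.61, 7.73, 7.32 and 7.86 in obese-father males. The obese-father arrays sat close together, at 7.63 ± 0.23 (SD, n = 4), inside the wide lean-parent range of 5.75 ± 2.18. The log2 fold change was 1.88 (SE 0.87, adjusted p = 0.331). Ncl, which binds the precursor RNA, read 5.35, 7.29, 7.85 and 4.49 against 7.63, 7.80, 7.58 and 8.74, a log2 fold change of 1.70 (SE 0.74, adjusted p = 0.321). In both genes the low lean-parent values came from arrays 1 and 4, with a signal spread of 1.29 and 1.27.

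Among RNA polymerase I genes, Polr1e, a subunit of the polymerase, was the 1 member lower at an unadjusted p under 0.05. It read 3.19, 2.88, 2.98 and 3.17 in lean-parent males and 2.80, 2.72, 2.76 and 2.24 in obese-father males. The groups did not overlap, and the log2 fold change was -0.42 (SE 0.15, adjusted p = 0.316). The catalytic subunits Polr1a (2.64 ± 0.21 against 2.50 ± 0.06) and Polr1b (2.87 ± 0.05 against 2.86 ± 0.10) lay near each other in the groups of lean parents and obese fathers. Rrn3, which brings the polymerase to the promoter, had a log2 fold change of 1.08 (95% interval -0.22 to 2.38), and Ubtf, which holds the ribosomal DNA open, of 0.26 (-0.28 to 0.81). Polr1d, a subunit shared with RNA polymerase III, had 1.02, and its second probe set 0.31.

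The subunit assembly factors were divided. In the large-subunit set the median log2 fold change was 0.04, with 10 of 16 above 0. Gnl3 (nucleostemin), a GTP-binding nucleolar protein, read 3.29, 4.35, 4.07 and 3.21 in lean-parent males and 4.69, 4.48, 5.20 and 5.25 in obese-father males, apart from each other, with a log2 fold change of 1.18 (SE 0.47, adjusted p = 0.316). Nip7 (0.66), Nol8 (0.58) and Rrp15 (0.89) also had unadjusted p under 0.05 and groups that did not overlap. Rrp15 was dim and exceeded the table median, 2.56, on only 7 arrays. Its mean was 2.03 in lean-parent males and 2.92 in obese-father males, so part of its difference lay below that median. The PeBoW complex, needed for large-subunit maturation, gave -0.05 for Bop1, -0.25 for Pes1 and 0.09 for Wdr12. In the small-subunit set the median was 0.02, with 10 of 20 above 0. Its members ran from Utp25 at -0.45 (95% interval -0.92 to 0.02) to Utp3 at 1.19 (-0.11 to 2.49). Imp3 and Imp4, which join the U3 snoRNA to its target, had 0.22 and 0.08, and Utp20, a large scaffold of the processome, had -0.22. Nol4l, a member by spelling alone, was the other gene whose obese-father arrays all lay lower, at -0.26.

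**Figure D2:**
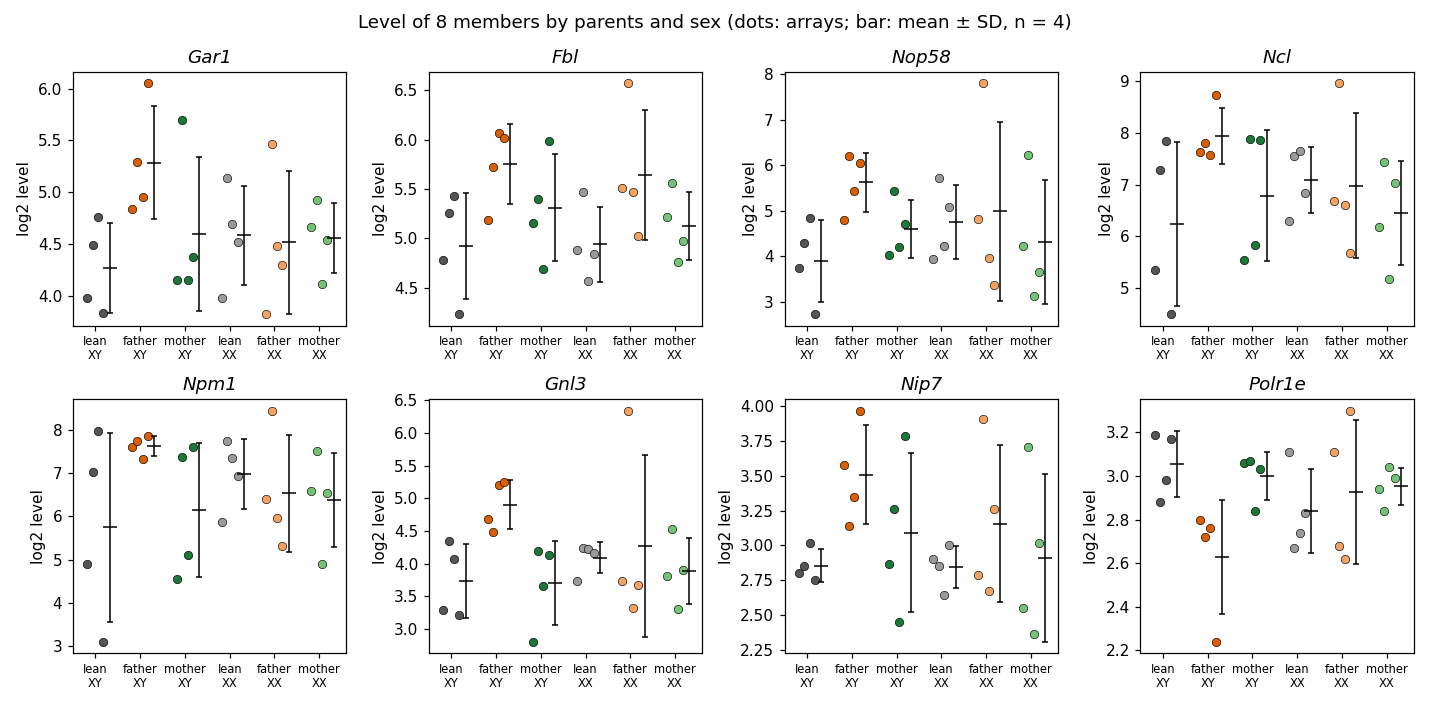
Log2 level (vertical axis) of 8 members on each array (dots) with the group mean and SD (bars, n = 4), for embryos of lean parents, obese fathers and obese mothers of each sex. The obese-father male arrays of Gar1, Gnl3 and Nip7 lie above all lean-parent male arrays and those of Polr1e below them, while Npm1 and Ncl overlap.

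These values moved with single arrays and with the signal spread. Without array 12, 0 members were higher at an unadjusted p under 0.05 (background 1.72%). Without lean-parent male array 4 there was 1 (background 2%), and without lean-parent male array 1 there were 3 (background 2.32%). The count rose to 12 without lean-parent male array 3, and to 12 without array 22. Over all omissions of single arrays it ran from 0 to 12, against 9 in the main fit. Array weights gave 12 (background 5.80%), and a fit to both groups alone gave 13 (background 5.65%). The median over members ran from 0.03 to 0.23 when single arrays were left out, and was 0.03 without arrays 12 and 22. Without those 2 arrays 6 members were higher (background 3.54%) and 3 lower (background 7.51%). The snoRNP proteins then had a median of 0.75 with 6 of 6 above 0, and the nucleolar pair one of 1.62. Array 22 is a female array outside this comparison. Leaving it out changes no male fold change, only the estimate of spread that all 6 groups share and so the p-values. A fit that included the signal spread gave a median of -0.12, with 18 of 54 above 0 (6203 of 13311 over all tested genes). There, 0 members were higher (background 2.49%) and 6 lower (background 4.69%) at an unadjusted p under 0.05. In that fit the snoRNP proteins had a median of 0.19, with 4 of 6 above 0, and Nop58, Ncl and Npm1 had 0.34, 0.27 and 0.32. Gar1 had 0.37 and Polr1e -0.25. Quantile normalization, which gives every array the same set of values, left the median at 0.14, with 39 of 54 above 0 (5111 of 13311 over all tested genes). The snoRNP proteins then had a median of 0.79, with 6 of 6 above 0, and the nucleolar pair one of 1.27. Median centring gave 0.23, with 40 of 54 above 0 (6008 of 13311), and 1.09 for the snoRNP proteins.

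**Figure D3:**
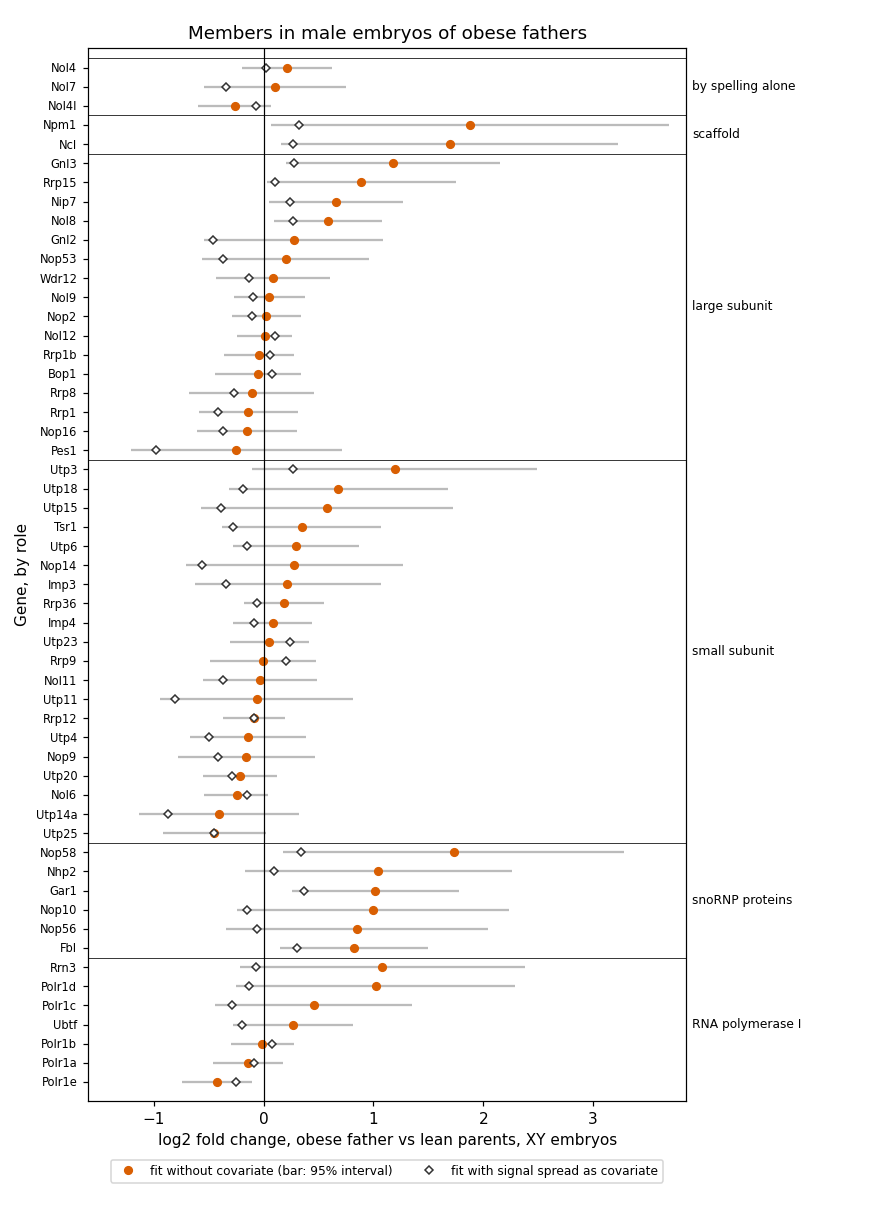
Log2 fold change of each tested member between obese-father and lean-parent males (orange dots, with 95% intervals) and in the fit that includes signal spread (open diamonds), by role (scaffold stands for Ncl and Npm1). The 6 snoRNP proteins and the nucleolar pair lie between 0.83 and 1.88 in the first fit and between -0.15 and 0.37 in the second.

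Other genes of the pathway, from a list of 79 tested genes that the naming rule does not reach, were set beside the members. Of the 79, 0 passed the adjusted threshold in either direction, 50 were above 0 (63.3%, background 33.3%) with a median of 0.12, and 7 were higher (8.86%, background 4.30%) and 4 lower (5.06%, background 10.4%) at an unadjusted p under 0.05. Those of smallest p among the higher were Taf1d (2.05, SE 0.70), a subunit of the polymerase I selectivity factor, Fcf1 (1.57, SE 0.57) and Krr1 (1.30, SE 0.45), both small-subunit processome proteins, and Trmt112 (1.09, SE 0.43), an activator of methyltransferases. Ddx54 (-0.49, SE 0.14), Exosc10 (-0.43, SE 0.17), Exosc3 (-0.52, SE 0.23) and Wdr46 (-0.35, SE 0.17) were lower. Exosc10 and Exosc3 belong to the RNA exosome, and Exosc3 read 0.61 when its probe sets were averaged. The cytosolic ribosomal proteins, the cargo of this pathway, had a median of 1.35, with 58 of 59 above 0, against a median of 0.14 for the members. Of these 59, 0 passed the adjusted threshold (limma, background 0.00751%, smallest adjusted p 0.316). At an unadjusted p under 0.05, 43 of them were higher (72.9%, background 4.30%). With the spread covariate their median was 0.28, and with quantile normalization 0.64.

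Female embryos of obese fathers showed 0 of 54 members past the adjusted threshold (limma, background 0% of 13311 genes, smallest adjusted p 0.9997), and 2 at an unadjusted p under 0.05, both higher (3.70%, background 1.95%, with 0.886% as the background for lower). The median over members was 0.17, with 40 above 0, against 0.02 and 54.9% over all tested genes. Fbl read 5.51, 6.57, 5.47 and 5.02 against 4.88, 5.47, 4.57 and 4.84 in lean-parent females, with overlapping ranges and a log2 fold change of 0.70 (SE 0.32), while its second probe set gave -0.35. Utp14a, an X-linked small-subunit processome protein, read 3.29, 4.78, 2.79 and 2.40 against 2.58, 2.69, 2.62 and 2.24, a log2 fold change of 0.78 (SE 0.35). Array 22 supplied the top value of both. Without it, neither gene was higher at an unadjusted p under 0.05, and the median over members was -0.02. The fit with the spread covariate went the other way, with 9 higher (background 4.92%) and 0 lower (background 2.18%). Without lean-parent female array 13 or 16, neither Fbl nor Utp14a was higher at that threshold. The number of higher members also changed when other single arrays were left out. Over all such omissions the median over members ran from -0.02 to 0.28. Array 22 held extreme values in other members as well, such as 6.17 for Rrn3 against 2.60, 2.99 and 2.97 on the other obese-father female arrays. The snoRNP proteins had a median of 0.25 with it and -0.49 without arrays 12 and 22. Among the 79 other pathway genes 0 passed the adjusted threshold, and 58 were above 0 with a median of 0.17. The ribosomal proteins, with a median of 1.35 in males of obese fathers, had one of -0.22 in these females, with 10 of 59 above 0 (background 54.9%).

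The difference of the obese-father effect between the sexes was tested directly, as males minus females. Again 0 of 54 members passed the adjusted threshold (limma, background 0%, smallest adjusted p 0.654), and the median over members was 0.00 with 27 above 0 (background 32.6%), against a median of -0.14 over all genes. At an unadjusted p under 0.05, Gar1 was higher (1.09, SE 0.52; 1.85% of members, background 1.86%), and Utp14a (-1.19, SE 0.50) and Polr1e (-0.51, SE 0.22) were lower (3.70%, background 5.68%). These shares lay near or under the background. Npm1 and Ncl had differences of 2.33 (95% interval -0.24 to 4.89) and 1.80 (-0.37 to 3.97). These hold the difference of lean-parent males from lean-parent females, which was -1.22 for Npm1 and -0.84 for Ncl. With the spread covariate the 2 differences were 0.82 and 0.42. Without arrays 12 and 22 there were 10 members higher (background 4.94%) and 3 lower (background 11.9%). Without array 22 alone 13 were higher (background 6.97%) and 2 lower (background 17%). Without array 12 alone 0 were higher (background 1.12%) and 1 lower (background 3.68%). The fit with the spread covariate gave 0 higher (background 2.78%) and 12 lower (background 7.10%), so the counts turned with the handling of these arrays.

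In embryos of obese mothers the members' median difference from lean parents lay near 0 in both sexes. Among males 0 of 54 passed the adjusted threshold (limma, background 0%), the median was -0.01 with 27 above 0 (background 46.1%), and 1 member was higher and 0 lower at an unadjusted p under 0.05 (1.85%, background 0.601%, and background 1.10% for lower). That member was Bop1 of the PeBoW complex, which read 3.21, 2.62, 3.20 and 3.10 against 2.77, 2.52, 2.69 and 2.52 in lean-parent males, a log2 fold change of 0.41 (SE 0.19, adjusted p = 0.9998). In this group 3 of the 4 arrays exceeded every lean-parent array. Its partners did not share that direction, with Pes1 at -0.64 and Wdr12 at -0.06 in these males. Nop58 and Npm1 were at 4.59 ± 0.63 and 6.16 ± 1.55 (SD, n = 4), between the lean-parent means of 3.89 and 5.75 and the obese-father means of 5.62 and 7.63. The ribosomal proteins had a median of 0.68 in these males, with 56 of 59 above 0 (background 46.1%) and 0 at an unadjusted p under 0.05.

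Among females of obese mothers 0 of 54 passed (limma, background 0%), the median was 0.05 with 31 above 0 (background 61.7%), and 1 member was lower and 0 higher at an unadjusted p under 0.05 (1.85%, background 0.541%, and background 1.65% for higher). Wdr12, also of the PeBoW complex, read 3.80, 3.60, 3.21 and 3.46 against 4.36, 3.70, 4.51 and 3.80 in lean-parent females, a log2 fold change of -0.58 (SE 0.25, adjusted p = 0.999). The ranges overlapped, and its second probe set gave -0.41. Bop1 and Pes1 of the same complex lay near 0 in these females, at -0.08 and 0.05. Imp3 stood at -0.82 (95% interval -1.67 to 0.03) and Nhp2 at -0.91 (-2.12 to 0.31). Of the 79 other pathway genes, 0 passed in either sex, with 47 above 0 in males and 41 in females. The ribosomal proteins had a median of -0.59 in females of obese mothers, with 3 of 59 above 0 (background 61.7%). The difference of the obese-mother effect between the sexes gave 1 member at an unadjusted p under 0.05, Nol6 at -0.49 (SE 0.20; 1.85% lower, background 1.77%, and 0% higher, background 0.819%). It gave 29 above 0 (background 39.4%) and 0 past the adjusted threshold (limma, background 0%).

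Set against obese fathers, embryos of obese mothers had more members on the lower side in both sexes in the fit without a covariate, again with 0 of 54 past the adjusted threshold (limma, background 0.00751% in males and 0% in females). Both comparisons reuse arrays of those above. In males the median was -0.16, with 16 above 0 (background 65.1%), against 0.09 over all genes. There, 2 members were higher (3.70%, background 6.27%) and 1 lower (1.85%, background 2.08%) at an unadjusted p under 0.05. With the spread covariate the members' median in males was 0.06 with 30 above 0. That was near all tested genes in that fit, with a median of 0.03 and 7572 of 13311 above 0. With quantile normalization it was -0.15, with 16 above 0 (8105 of 13311 over all tested genes). Gnl3 had -1.20 (SE 0.47), Bop1 0.46 (SE 0.19) and Polr1e 0.37 (SE 0.15), in males. Groups did not overlap for Gnl3, Nol8 and Tsr1, which were lower (5.56%, background 1.28%), and for Polr1e, which was higher (1.85%, background 5.57%). In females the median was -0.27, with 11 above 0 (background 55.5%), against 0.03 over all genes, and without array 22 it was 0.06. Here, Nop2 (-0.39, SE 0.15), a large-subunit RNA methyltransferase, Ubtf (-0.58, SE 0.26) and Utp14a (-0.74, SE 0.35) were lower (5.56%, background 1.28%), and Nop16 (0.48, SE 0.22) was higher (1.85%, background 1.97%).

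**Figure D4:**
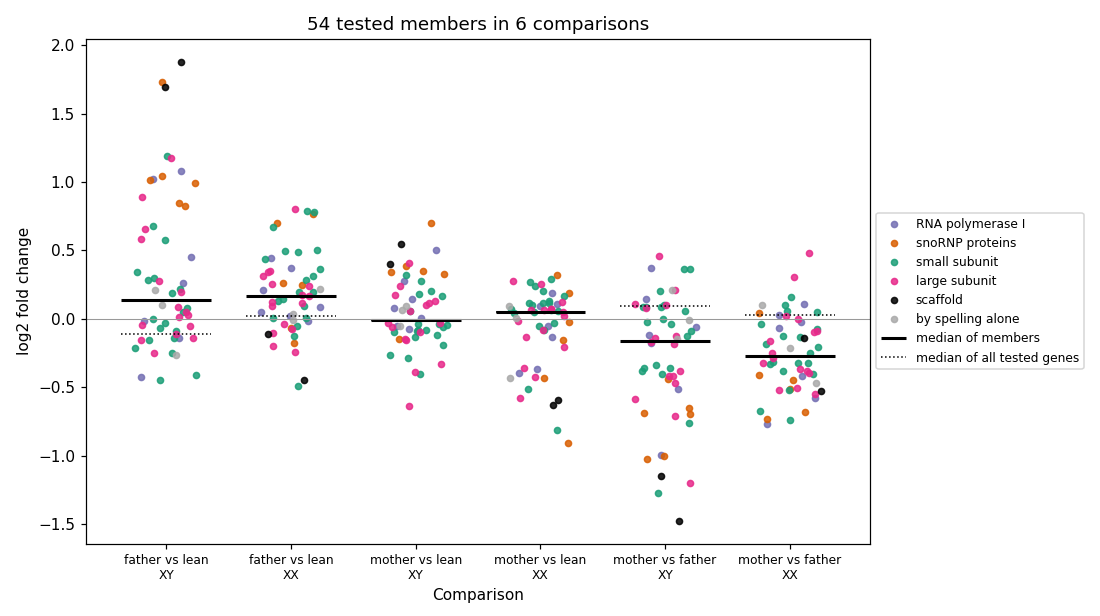
Log2 fold change (vertical axis) of the 54 tested members, coloured by role (scaffold stands for Ncl and Npm1), in 6 comparisons (horizontal axis), with the median of the members (solid line) and of all tested genes (dotted line). The members' median runs from -0.27 to 0.17, and Npm1, Nop58 and Ncl are the 3 highest dots in obese-father males against lean-parent males.

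Few members stood apart between male and female embryos of the same kind of parents. With lean parents 0 of 54 members passed (limma, background 0%), 26 were above 0 (background 62.6%), and 2 were higher and 2 lower in males at an unadjusted p under 0.05 (3.70% each, background 2.52% and 0.849%). For 1 member in each direction the groups did not overlap (background 1.71% higher and 0.481% lower). Nol12, a nucleolar RNA-binding protein, read 3.31, 3.32, 3.10 and 3.24 in males and 2.97, 3.09, 2.85 and 2.86 in females, apart from each other, a log2 fold change of 0.30 (SE 0.12). Imp3 read 3.36, 3.67, 3.56 and 3.57 in males and 4.00, 4.04, 5.51 and 4.37 in females, also apart, at -0.94 (SE 0.41). Nol6 (0.33, SE 0.14) was the other higher and Wdr12 (-0.59, SE 0.25) the other lower member. The ribosomal proteins had a median of -1.01 in lean-parent males against females, with 1 of 59 above 0 (background 62.6%). With obese fathers, Gar1 was higher (0.77, SE 0.37; 1.85%, background 1.47%) and Utp14a lower (-0.99, SE 0.35; 1.85%, background 3.94%) in males, 24 were above 0 (background 35.3%), and 0 of 54 passed the adjusted threshold (limma, background 0.00751%). With obese mothers 0 of 54 passed, 30 were above 0 (background 47.3%), and 0 were higher or lower at an unadjusted p under 0.05 (limma, background 0.706% in each direction). Groups did not overlap there for Ubtf, higher in males at 0.36 (1.85%, background 0.766%), and Nol8, lower at -0.26 (1.85%, background 0.894%).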

How the data were processed

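The authors deposited 1 log2 intensity for each probe set and array, made with RMA, which corrects background, normalizes arrays and summarises probes, and with the package affy, as the submitters' processing notes say. Versions, probe set definition and build: not given in the sources used here. Of 35556 probe sets, 21789 had 1 gene symbol in GEO's platform annotation, and the set of highest mean stood for each gene. Sets with several symbols, 8 of which name a member, were not used. Genes above the table median on at least 4 of the 24 arrays (13311) were tested.

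Groups came from the sample titles. In R 4.3.3, lmFit and eBayes of limma 3.58.1 fitted a mean for each of 6 groups to all arrays, with Benjamini-Hochberg adjustment per contrast over all tested genes. The procedure was tested on simulated data. All members may be named: the text gives landmarks of each step and up to 5 members per direction with the smallest unadjusted p, and up to 4 per direction of the other pathway list. Members, lists and tests were chosen with earlier results of these data known. Alternatives were filters on dim genes, averaged probe sets, limma's trend and robust options, array weights, a covariate for signal spread, median centring, quantile normalization, fits to the contrast's own groups, a 0.10 threshold and the omission of each array in turn. Leaving out both arrays of widest spread was added after seeing the data. The number of arrays limits the precision.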

Additional observations from a re-analysis of the deposited data

Results flagged for a closer look

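In 14 of 162 sets of 4 arrays (27 members in 6 groups), 1 array stood far from the other 3, by a gap above Dixon's 95% critical value, and chance flags about 1 in 20 sets. Array 22 of the obese-father females accounted for 6 of them, at 5.32 for Ubtf, 6.17 for Rrn3, 5.72 for Nhp2, 7.37 for Nop10, 5.21 for Utp15 and 6.34 for Gnl3. Each was the highest of its group, on the array of widest signal spread. In obese-father males, array 9 was high for Polr1a at 2.58, and array 12 was low for Polr1e at 2.24. In obese-mother males, array 8 was high for Nop56 at 5.37 and array 6 for Gar1 at 5.70. In lean-parent females, array 15 was high for Utp15 at 3.42, array 16 low for Bop1 at 2.76 and array 13 low for Gnl3 at 3.74. In lean-parent males, array 3 was high for Pes1 at 4.67.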

How the results depend on the processing

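Under every alternative run, 0 members passed the adjusted threshold of 0.05 in any contrast, so the settings bear on sizes and on counts at an unadjusted p. Counts of called genes over the whole array, main value 1, moved to 0 or 2 when males of obese fathers were set against males of lean parents (0 with the stricter filter or the contrast's groups alone, 2 with array weights or the spread covariate, 0 to 2 leaving out single arrays). For obese-mother against obese-father males they were 0 with the stricter filter, the covariate, the groups alone or without the 2 arrays of widest spread, 2 with array weights, and 0 to 2 leaving out single arrays. For males against females of obese fathers they were 0 with the stricter filter, median centring or the groups alone, 4 with the covariate, and 0 to 1 leaving out single arrays. From a main value of 0, the covariate gave 2 for the difference of the obese-father effect between the sexes, and leaving out single arrays gave 0 to 1 for obese-father against lean-parent females and obese-mother against obese-father females. The median over members in the last of these, -0.27, was 0.058 without the 2 arrays of widest spread and -0.39 to 0.058 leaving out single arrays. Exosc3 in males of obese fathers against those of lean parents reversed to 0.61 with averaged probe sets. The cause of these changes was not tested. No paired analysis was possible because the labels give each array its own number and no number is shared between groups. Dim members near the table median, such as Polr1a, leave little signal in which a difference could be measured.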
